A study of Drosophila mauritiana and Drosophila melanogaster and Drosophila simulans with 12 samples.

Results

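The 10 genes described here build and maintain the apical and basolateral domains of epithelial cells. They are *crumbs* (*crb*), *stardust* (*sdt*), *Patj*, *bazooka* (*baz*), *par-6*, *aPKC*, *lethal (2) giant larvae* (*l(2)gl*), *discs large 1* (*dlg1*), *scribble* (*scrib*) and *shotgun* (*shg*). They were taken by name as textbook polarity genes and matched to the count tables by FlyBase identifier. All 10 were present among the 13331 genes of the table with *D. melanogaster* and the 13320 genes of the table with *D. simulans*. RNA was sequenced from eye-antennal imaginal discs, the larval epithelia that form the adult eye, antenna and most of the head capsule. Discs came from late L3 (last larval stage) females, collected 120 h after egg laying from larvae kept at 25 °C and 30 per vial, with 40 to 50 discs per library. The 4 groups of 3 biological replicates were *D. melanogaster* (strain OreR) and *D. mauritiana* (strain TAM16, replicates A to C) with single-end reads, and *D. simulans* (strain YVF, a *yellow vermillion forked* stock) and *D. mauritiana* (TAM16 again, replicates D to F) with paired-end reads. Each species was represented by a single strain, so species and strain cannot be told apart, nor can species and the visible mutations of the *D. simulans* stock, which affect body colour, eye colour and bristles.

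The proteins act in modules that occupy the apical or the basolateral domain of the cell membrane. In the Crumbs complex, the transmembrane protein Crumbs is held at the apical membrane by the scaffold Stardust, to which the multi-PDZ protein Patj binds. In the Par complex, the scaffold Bazooka recruits Par-6 and the kinase aPKC, and aPKC excludes L(2)gl from the apical side by phosphorylation, while L(2)gl, Dlg1 and Scribble together keep apical proteins out of the basolateral side. The adherens junction, built on the E-cadherin encoded by *shg*, lies between both domains. In the eye disc, Crumbs and its partners are also known for shaping the light-sensing membrane of photoreceptors later in development.

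The count tables summed to between 17170747 and 27621643 reads per library in *D. melanogaster*, between 17622291 and 34063962 in the single-end and between 121468882 and 156980543 in the paired-end *D. mauritiana* set, and between 126177323 and 162437570 in *D. simulans*. The paired-end totals count every 50 bp part of the split read pairs separately, so they are not numbers of sequenced fragments. All 10 eye and all 4 antennal marker genes were detected in every library. None was called different from *D. mauritiana* in *D. melanogaster* or *D. simulans*, where 18.2% and 25.1% of all genes tested were called. Single-end libraries differed in where reads fell along transcripts. On 35 gene models cut at their 3′ end, the median log2 read density of the removed 3′ part over the kept 5′ part was 0.74, 1.76 and 0.87 in *D. melanogaster* A, B and C, and 1.81, 1.49 and 0.73 in single-end *D. mauritiana* A, B and C. In the paired-end *D. mauritiana* libraries D, E and F it was 0.20, 0.17 and 0.34, and it was not measured in *D. simulans*. Of the polarity genes, 10 of 10 were lowest in replicate B among the *D. melanogaster* libraries, and 10 of 10 were highest in replicate C among the single-end *D. mauritiana* libraries. Single-end *D. mauritiana* A was the lowest of its set for 8 of 10, the exceptions being *Patj* and *l(2)gl*. Within each single-end set, the library with the highest 3′ density thus had the lowest levels of most of these genes. The part of this measure in the results was not tested.

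Levels are given as RPKM, read counts divided by gene model length and by sequencing depth, with library sizes scaled by TMM (trimmed mean of M-values) within each species comparison, since both tables were normalised separately. *shg* was the most abundant polarity transcript in each group, with a mean of 82.2 ± 25.4 RPKM in *D. melanogaster*, 75.4 ± 28.8 in single-end *D. mauritiana*, 145 ± 3.00 in *D. simulans* and 169 ± 6.08 in paired-end *D. mauritiana* (SD, n = 3). *l(2)gl* came second by mean in all 4 groups, and held rank 1 to 3 over the 12 libraries. *par-6*, *crb* and *scrib* formed a middle tier and held ranks 2 to 5, 3 to 5 and 3 to 5. The other 5 genes, *sdt*, *Patj*, *aPKC*, *baz* and *dlg1*, took only ranks 6 to 10. Most neighbours in this order did not differ beyond the spread of their libraries. The ranges were separate for 2 of the 9 neighbouring pairs in *D. melanogaster*, 0 of 9 in single-end *D. mauritiana*, 3 of 9 in *D. simulans* and 6 of 9 in paired-end *D. mauritiana*. The replicates themselves were wider in the single-end sets, where the coefficient of variation had a median over the genes of 21.5% in *D. melanogaster* and 32.8% in *D. mauritiana*, than in the paired-end sets, with 6.45% in *D. simulans* and 3.12% in *D. mauritiana*.

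**Figure D1:**
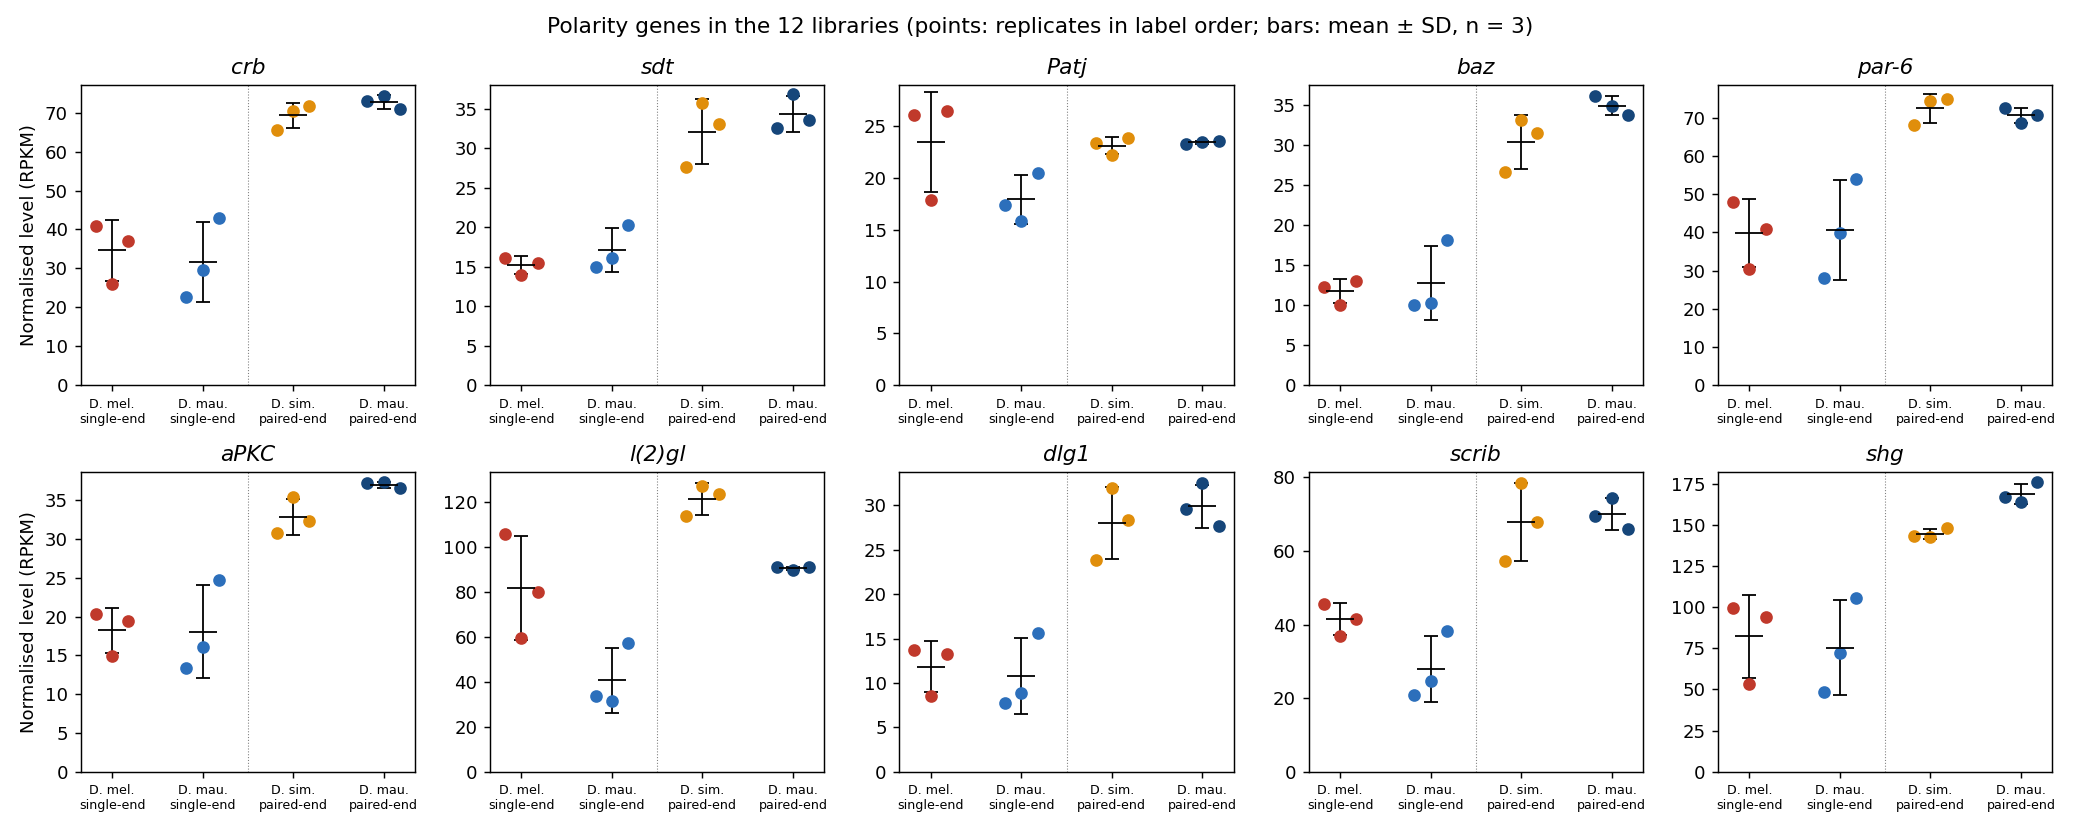
Normalised level (RPKM, linear axis from 0) of the 10 polarity genes in the 12 libraries. Points are replicates, horizontal bars are means and vertical bars SD (n = 3), and the dotted line divides the single-end groups (left) from the paired-end groups (right), which were normalised separately. *l(2)gl* lies between 59.6 and 106 RPKM in *D. melanogaster*, above the single-end *D. mauritiana* libraries, and between 114 and 127 RPKM in *D. simulans*, above the paired-end *D. mauritiana* libraries.

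The first comparison asked which of these genes differ between the discs of *D. melanogaster* and *D. mauritiana*. None of the 10 passed the test at an adjusted p of 0.05, and *l(2)gl* came closest, at a 2.01-fold higher level in *D. melanogaster*. In the quasi-likelihood test of edgeR, 18.2% of the 9767 genes tested were called, 8.06% higher and 10.1% lower in *D. melanogaster*. An unadjusted p under 0.05 was reached by 2 of the 10 polarity genes (*l(2)gl* and *scrib*). Over all genes the share under that unadjusted threshold was at least the 18.2% called after adjustment. DESeq2 called 1 of the 10, *l(2)gl*, beside 2462 of 13331 genes. Over the 10 genes, the median log2-fold change was 0.13, against 0.01 over all genes tested. The precision was limited, since the median standard error of the log2-fold change was 0.26 for these genes and 0.23 over all genes.

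Of the Crumbs complex, none of the genes differed beyond its replicate spread. *crb* stood at 40.9, 25.9 and 37.1 RPKM in *D. melanogaster* and at 22.6, 29.5 and 42.9 RPKM in *D. mauritiana*, and both sets overlapped. Its log2-fold change was 0.13 with a 95% interval from -0.51 to 0.77, so a change of up to 1.70-fold was not excluded at this spread. The levels of *sdt* were 16.1, 13.96 and 15.5 RPKM in *D. melanogaster*, against 14.96, 16.1 and 20.3 in *D. mauritiana*, with a log2-fold change of -0.17 (-0.54 to 0.19). *Patj* had 26.1, 17.9 and 26.5 RPKM in *D. melanogaster* and 17.4, 15.9 and 20.5 in *D. mauritiana*, with a log2-fold change of 0.39 (-0.06 to 0.84, adjusted p = 0.22). The *D. melanogaster* libraries A and C exceeded all *D. mauritiana* libraries for *Patj*, but library B lay among them.

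For the Par complex, the estimates were near 0 with wide intervals. The kinase gene *aPKC* reached 20.4, 14.97 and 19.4 RPKM in *D. melanogaster* and 13.3, 16.2 and 24.8 in *D. mauritiana*. Its log2-fold change of 0.01 ran from -0.57 to 0.59. For *par-6*, which encodes the adaptor of aPKC, 48.0, 30.3 and 41.0 RPKM were found in *D. melanogaster*, against 28.1, 39.8 and 54.1 in *D. mauritiana*, a log2-fold change of -0.03 (-0.67 to 0.60). The scaffold gene *baz* had 12.3, 10.04 and 12.95 RPKM in *D. melanogaster* and 9.94, 10.2 and 18.1 in *D. mauritiana*, a log2-fold change of -0.12 (-0.72 to 0.49). In each case the *D. mauritiana* libraries spanned the *D. melanogaster* ones, with replicate C at the top.

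The largest differences between *D. melanogaster* and *D. mauritiana* were those of the basolateral genes *l(2)gl* and *scrib*, and neither passed. *l(2)gl* had 106, 59.6 and 79.9 RPKM in *D. melanogaster* and 33.5, 31.4 and 57.2 RPKM in *D. mauritiana*. The lowest *D. melanogaster* library thus lay above the highest *D. mauritiana* library, and this was the only one of the 10 genes without overlap, while 37.6% of all genes tested did not overlap, 18.1% being higher in *D. melanogaster*. The log2-fold change was 1.01 ± 0.30 (SE), with a 95% interval from 0.31 to 1.71, and the adjusted p was 0.058. It passed without *D. melanogaster* B (log2-fold change 1.19, adjusted p = 0.036) and without *D. mauritiana* C (1.33, adjusted p = 0.0167), and with any other library left out the adjusted p was between 0.141 and 0.197.

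*scrib* had 45.7, 37.0 and 41.6 RPKM in *D. melanogaster* and 20.9, 24.8 and 38.2 in *D. mauritiana*. Only *D. mauritiana* C reached into the range of *D. melanogaster*. The log2-fold change was 0.57 (0.01 to 1.13, adjusted p = 0.151), and without *D. mauritiana* C it was 0.86 (adjusted p = 0.0179). The third gene of the module, *dlg1*, had 13.7, 8.58 and 13.3 RPKM in *D. melanogaster* and 7.75, 8.88 and 15.7 in *D. mauritiana*, with a log2-fold change of 0.14 (-0.58 to 0.86). The E-cadherin gene *shg* overlapped broadly, with 99.4, 53.0 and 94.2 RPKM in *D. melanogaster*, 48.6, 71.9 and 106 RPKM in *D. mauritiana* and a log2-fold change of 0.13 (-0.67 to 0.92).

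Since the 3′ read density differed among these libraries, the 6 single-end libraries were also divided by it, a choice made after the values were seen. Between *D. melanogaster* A and C and *D. mauritiana* C, the 3 libraries with the lower density, the log2-fold change of *l(2)gl* was 0.70, and between *D. melanogaster* B and *D. mauritiana* A and B it was 0.86. For *scrib* the same values were 0.20 and 0.68. The apical genes stood near or below 0 in both sets apart from *Patj*, which had 0.36 with the lower and 0.09 with the higher density. With the lower density *baz* had -0.52, *sdt* -0.36, *aPKC* -0.32, *par-6* -0.28 and *crb* -0.14, and with the higher density these genes lay between -0.18 for *par-6* and 0.00 for *aPKC*. The tests within these sets rest on the spread of a single pair of libraries and called 49.8% and 18.2% of all genes, so only the values are given here, and the part of 3′ density in the species differences was not tested.

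**Figure D2:**
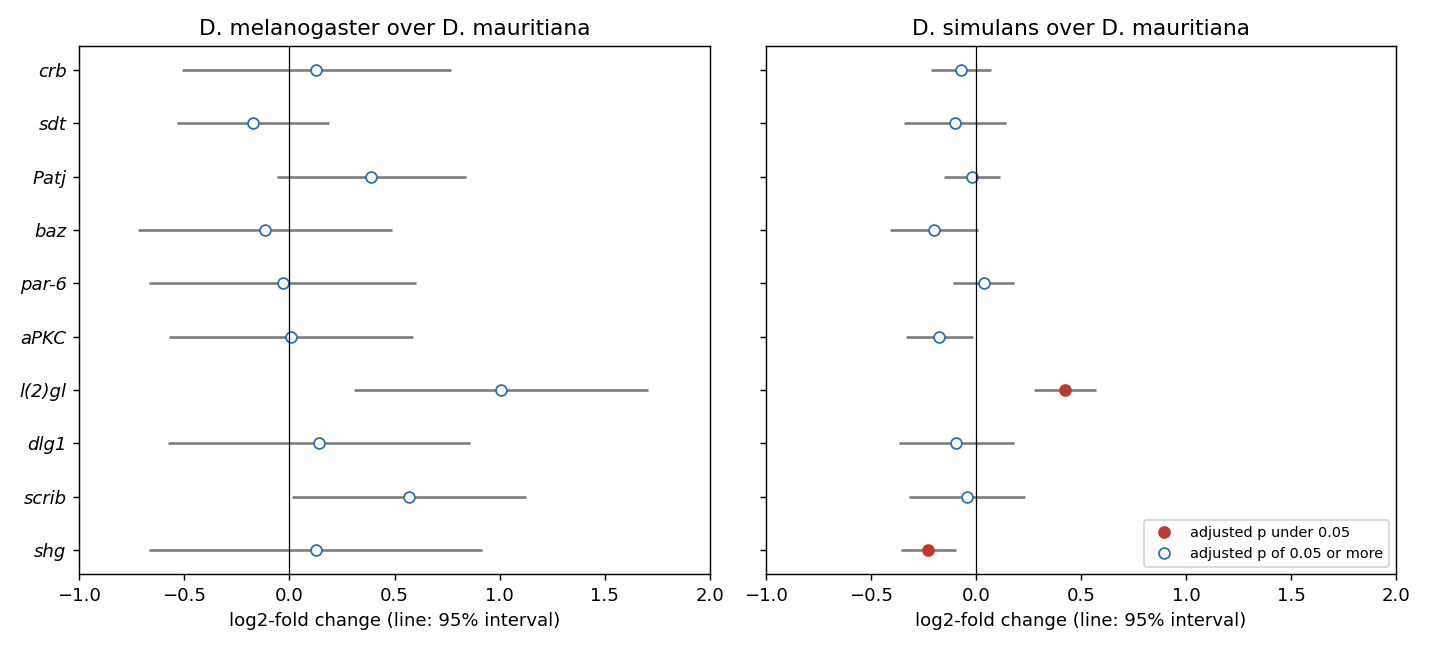
Log2-fold changes of the 10 polarity genes, *D. melanogaster* over *D. mauritiana* (left) and *D. simulans* over *D. mauritiana* (right), from edgeR's quasi-likelihood test on 3 libraries per group. Lines are 95% intervals and filled points passed an adjusted p of 0.05, which were *l(2)gl* (0.42) and *shg* (-0.23) in *D. simulans* and no gene in *D. melanogaster*.

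The second comparison asked the same of *D. simulans* and *D. mauritiana*, on the paired-end libraries. Their higher totals count the 50 bp parts of each pair separately, so they do not measure depth in fragments. *l(2)gl* was 1.34-fold higher and *shg* was 0.855 times the *D. mauritiana* level in *D. simulans*, and the other 8 genes did not pass. These 2 calls among 10 genes stand beside 25.1% of the 11121 genes tested, with 12.1% higher and 13.0% lower in *D. simulans*. The median log2-fold change of the 10 genes was -0.08, against 0.00 over all genes, and their median standard error of 0.06 was below the 0.12 of all genes. Intervals were accordingly narrow, so most of the genes that did not pass were bounded to small differences.

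*l(2)gl* had 114, 127 and 124 RPKM in *D. simulans* and 90.9, 89.7 and 91.0 RPKM in *D. mauritiana*. All *D. simulans* libraries lay above all *D. mauritiana* libraries. The log2-fold change was 0.42 ± 0.06 (SE, 95% interval 0.28 to 0.57, adjusted p = 0.00348), and it passed with each library left out in turn, at values from 0.39 to 0.47.

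*shg* had 143, 143 and 148 RPKM in *D. simulans*, against 167, 164 and 176 RPKM in *D. mauritiana*, without overlap. The log2-fold change was -0.23 ± 0.06 (SE, 95% interval -0.36 to -0.10, adjusted p = 0.0258). It did not pass without *D. simulans* B (adjusted p = 0.0729) or C (0.0686), nor without *D. mauritiana* D (0.0967), E (0.059) or F (0.0716), while the value stayed between -0.25 and -0.20. Without *D. simulans* A it passed (0.0344).

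2 genes of the Par complex were also without overlap but failed the adjusted test. *aPKC* had 30.8, 35.4 and 32.4 RPKM in *D. simulans* and 37.2, 37.4 and 36.6 in *D. mauritiana*, a log2-fold change of -0.17 (-0.33 to -0.02, adjusted p = 0.106). *baz* had 26.6, 33.1 and 31.4 RPKM in *D. simulans* and 36.1, 34.9 and 33.7 in *D. mauritiana*, a log2-fold change of -0.20 (-0.41 to 0.01, adjusted p = 0.146). In all, 4 of the 10 genes did not overlap between these species, beside 44.6% of all genes tested, and *l(2)gl* was the only one of them higher in *D. simulans*, beside 21.6%. The partner *par-6* overlapped, at 68.3, 74.5 and 74.9 RPKM in *D. simulans* and 72.7, 68.7 and 70.8 in *D. mauritiana*, and its log2-fold change of 0.04 was bounded between -0.11 and 0.18.

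The Crumbs complex differed little between these species. *crb* had 65.7, 70.5 and 71.8 RPKM in *D. simulans* and 73.0, 74.4 and 71.0 in *D. mauritiana*, with a log2-fold change of -0.07 (-0.21 to 0.07). *Patj* had 23.4, 22.2 and 23.9 RPKM in *D. simulans* and 23.3, 23.5 and 23.6 in *D. mauritiana*, and its interval from -0.15 to 0.11 was the narrowest among the genes that did not pass. *sdt* had 27.7, 35.7 and 33.0 RPKM in *D. simulans* and 32.6, 36.9 and 33.6 in *D. mauritiana* (-0.10, from -0.34 to 0.14). The remaining basolateral genes were less tightly bounded. For *scrib* the levels were 57.3, 78.6 and 67.8 RPKM in *D. simulans* and 69.6, 74.6 and 66.0 in *D. mauritiana* (-0.04, from -0.32 to 0.23), and for *dlg1* they were 23.8, 31.9 and 28.4 in *D. simulans* and 29.6, 32.5 and 27.6 in *D. mauritiana* (-0.09, from -0.37 to 0.18). *D. simulans* A was the lowest of its group for 8 of the 10 genes, the exceptions being *Patj* and *shg*.

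Because the discs also hold other cells, markers of these were followed in the same libraries. In bulk RNA, fewer cells of a type and less RNA per cell cannot be told apart. The marker calls stand beside 18.2% of all genes tested called in *D. melanogaster* and 25.1% in *D. simulans*, each against *D. mauritiana*. Muscle markers (4 of 5 in the tables) summed to between 2940 and 3390 CPM (counts scaled to sequencing depth alone) in *D. simulans*, against 2020 to 2440 in paired-end *D. mauritiana*, and 3 of the 4 were called higher in *D. simulans*. The 5 glial markers summed to between 50.6 and 61.2 CPM in *D. simulans* and 59.6 to 78.4 in paired-end *D. mauritiana*, with 3 called lower (*alrm*, *gcm* and *wrapper*). In *D. melanogaster* the glial sum was 52.0 to 60.0 CPM, against 113 to 150 in single-end *D. mauritiana*, with *moody* called higher and the same 3 lower. The astrocyte marker *alrm* had 6 to 14 counts per *D. melanogaster* library, against 1156 to 1367 in single-end *D. mauritiana*, whereas the pan-glial marker *repo* had 21.8 to 24.0 and 22.8 to 26.1 CPM. The 4 fat body markers summed to 4110, 122 and 3590 CPM in *D. melanogaster* A, B and C and to 493, 660 and 1890 CPM in single-end *D. mauritiana* A, B and C, and none was called. The 6 hemocyte markers summed to 233 to 1310 CPM in *D. melanogaster* and 285 to 506 in single-end *D. mauritiana*, with none called. Of the 4 neuronal markers 0 were called higher and 2 lower in *D. melanogaster* (31.7 to 33.4 CPM in sum, against 51.6 to 85.3). In *D. simulans* (74.7 to 138 CPM in sum, against 121 to 202) 1 was called. This was *Snap25*, higher at 1.7 to 3.06 CPM, against 1.19 to 1.51 in paired-end *D. mauritiana*. The others did not pass there, with log2-fold changes of -0.60 for *brp*, -0.53 for *Syt1* and 0.05 for *nSyb*. The part of these cells in the differences of *l(2)gl* and *shg* was not tested.

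To see *l(2)gl* apart from the scaling of each library, its log2 RPKM was set against the mean log2 RPKM of the other 9 polarity genes in the same library. This difference was 1.89, 1.58 and 1.55 in *D. melanogaster*, against 0.92, 0.58 and 0.88 in single-end *D. mauritiana*. In the paired-end pair it was 1.41, 1.36 and 1.38 in *D. simulans*, against 0.87, 0.82 and 0.90 in *D. mauritiana*. All 6 *D. melanogaster* and *D. simulans* values of *l(2)gl* thus lay above all 6 *D. mauritiana* values. The part of read type in these values was not tested. This separation was not particular to *l(2)gl*. *aPKC* was separate in the other direction, at -0.77 to -0.63 in *D. melanogaster* and *D. simulans*, against -0.59 to -0.46 in *D. mauritiana*. *baz* was at -1.563 to -1.275 in *D. melanogaster*, against -1.22 to -0.97 in single-end *D. mauritiana*. In *D. simulans* *baz* was at -0.91 to -0.79, against -0.70 to -0.61 in paired-end *D. mauritiana*. For *scrib* the difference was 0.54, 0.82 and 0.51 in *D. melanogaster* and 0.16, 0.21 and 0.23 in single-end *D. mauritiana*, without overlap, but 0.32, 0.59 and 0.42 in *D. simulans* and 0.44, 0.52 and 0.38 in paired-end *D. mauritiana*, with overlap. For *shg* the values overlapped in *D. melanogaster* and single-end *D. mauritiana*, and *D. simulans* at 1.78, 1.55 and 1.67 lay below paired-end *D. mauritiana* at 1.85, 1.79 and 1.95.

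**Figure D3:**
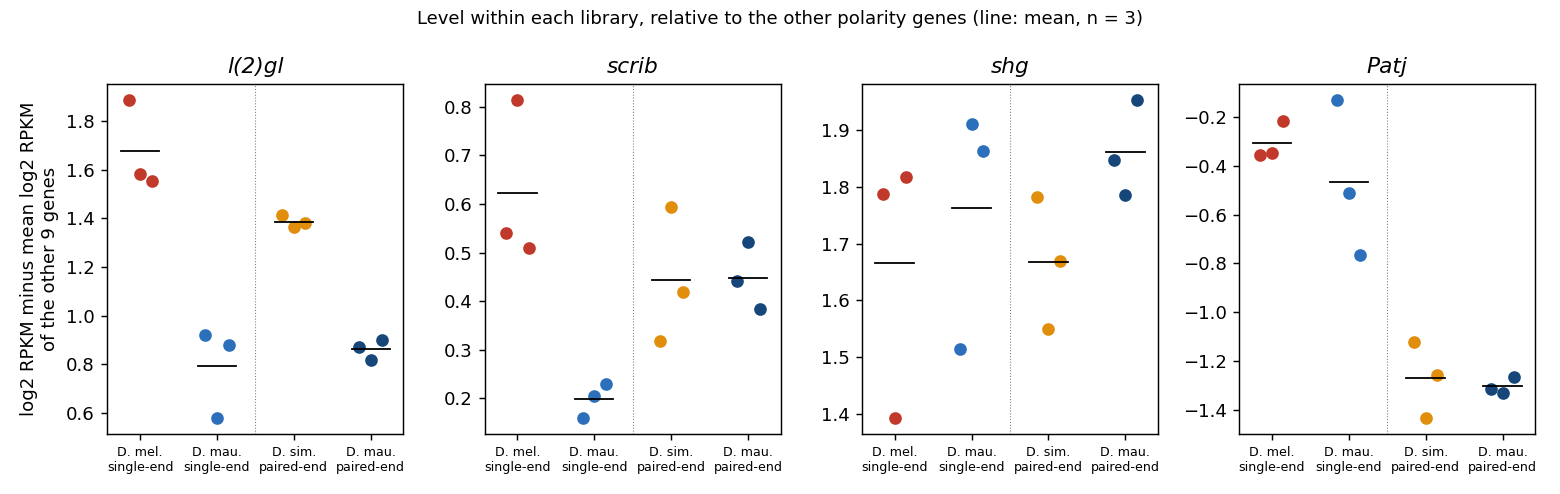
Level of 4 polarity genes within each library, as log2 RPKM minus the mean log2 RPKM of the other 9 genes (axis does not start at 0). Points are libraries and lines are means (n = 3), and the dotted line divides single-end from paired-end groups. *l(2)gl* lies between 1.36 and 1.89 in *D. melanogaster* and *D. simulans*, and between 0.58 and 0.92 in both *D. mauritiana* sets.

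Ratios between partners were also taken within each library, in linear units. The RPKM ratio of *l(2)gl* to *aPKC*, whose product opposes L(2)gl, was 3.98 to 5.20 in *D. melanogaster*, against 1.94 to 2.52 in single-end *D. mauritiana*, and 3.59 to 3.82 in *D. simulans*, against 2.40 to 2.49 in paired-end *D. mauritiana*. Against its basolateral partner *scrib*, the ratio of *l(2)gl* was 1.61 to 2.31 in *D. melanogaster* and 1.26 to 1.61 in single-end *D. mauritiana*, where the ranges met, and 1.62 to 1.98 in *D. simulans* and 1.20 to 1.38 in paired-end *D. mauritiana*, where they were apart. The ratio of *par-6* to *aPKC* was 2.02 to 2.36 in *D. melanogaster* and 2.11 to 2.46 in single-end *D. mauritiana*, and it was 2.10 to 2.32 in *D. simulans*, above the 1.84 to 1.96 of paired-end *D. mauritiana*. Transcripts of *crb* exceeded those of *sdt* by 1.85 to 2.54 times in *D. melanogaster* and 1.51 to 2.11 times in single-end *D. mauritiana*, and by 1.97 to 2.37 times in *D. simulans* and 2.02 to 2.24 times in paired-end *D. mauritiana*. The ratio of *crb* to *Patj* depended on the set of libraries, at 1.40 to 1.56 in *D. melanogaster* and 1.30 to 2.09 in single-end *D. mauritiana*, but 2.81 to 3.18 in *D. simulans* and 3.01 to 3.17 in paired-end *D. mauritiana*.

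Whether the species differences themselves differed was tested in all 12 libraries, as the difference of *D. melanogaster* over *D. mauritiana* minus that of *D. simulans* over *D. mauritiana*. None of the 10 genes passed, beside 14.5% of the 11287 genes tested (6.79% with a positive and 7.71% with a negative difference). An unadjusted p under 0.05 was reached by 0 of the 10, and DESeq2 called 0, beside 2220 of 13311 genes. The largest estimates were those of *scrib* at 0.60 (-0.06 to 1.26, adjusted p = 0.229), *l(2)gl* at 0.58 (-0.18 to 1.33, adjusted p = 0.324) and *Patj* at 0.41 (-0.07 to 0.89, adjusted p = 0.265). Leaving out single-end *D. mauritiana* C brought *scrib* (adjusted p = 0.0184) and *l(2)gl* (0.0402) past the threshold, and leaving out *D. melanogaster* B did so for *Patj* (0.0259). The *l(2)gl* differences from *D. mauritiana* were thus of the same sign in both species, and their sizes were not shown to differ.

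The third comparison set the paired-end and the single-end libraries of *D. mauritiana* side by side, which share strain, collection age and dissected tissue. All 10 polarity genes were called higher in the paired-end libraries, without overlap between the sets for any of them. In this comparison 20.9% of the 10467 genes tested were called higher and 24.4% lower, and 62.5% did not overlap, 30.5% being higher in the paired-end libraries. With both sets scaled together, *shg* averaged 169 ± 5.549 RPKM in paired-end and 76.0 ± 29.4 RPKM in single-end libraries, *l(2)gl* 90.4 ± 0.527 and 40.9 ± 14.4, and *crb* 72.6 ± 1.94 and 31.9 ± 10.6 (SD, n = 3). The log2-fold changes were largest for *dlg1* at 1.46 (95% interval 0.85 to 2.07) and *baz* at 1.44 (0.89 to 2.00) and smallest for *Patj* at 0.38 (0.09 to 0.66), with adjusted p between 0.00989 and 0.0399. The calls depended on single libraries, among these genes and over all genes. Without single-end B 0 of 10 passed, beside 292 of all 11073 genes tested. Without paired-end E 4 passed, beside 534 of 9990, and without paired-end D 7 passed, beside 1225 of 10016. Without paired-end F 8 passed, beside 3419 of 10102, and without single-end A 9 passed, beside 3047 of 11066. All log2-fold changes of the 10 genes stayed above 0.31.

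These differences moved with the length of the gene model. The median log2-fold change over all genes was -0.61 for models up to 1000 nt, -0.05 up to 2000 nt, 0.32 up to 3000 nt, 0.59 up to 5000 nt and 0.90 above 5000 nt. Each polarity gene lay above the median of its length class, from *Patj* at 0.38, above 54.4% of its class, to *dlg1*, above 92.8% of its class. Of the classes that hold most of these genes, 59.9% of models of 3000 to 5000 nt and 81.1% of longer ones were called higher in the paired-end libraries. The shortest model, that of *par-6* with 1056 nt, had a log2-fold change of 0.78 (0.26 to 1.31), above 86.6% of its class. Against single-end *D. mauritiana* C alone, the library with the lowest 3′ density of its set, the log2-fold changes of the 10 genes lay between 0.18 for *Patj* and 0.94 for *baz*. Against single-end A and B they lay between 0.49 for *Patj* and 1.84 for *dlg1*. In these sets the fat body markers summed to 29.1 to 38.1 CPM in paired-end and 493 to 1890 CPM in single-end libraries, all 4 being called lower, and the muscle markers to 2020 to 2440 and 899 to 1180 CPM, 3 of 4 being called higher. Of the 10 eye markers, 3 were called higher (*elav* 1.31, *dac* 0.95 and *sev* 0.61) and 2 lower (*ato* -1.09 and *ro* -0.91). Of the 4 antennal markers, 1 was called higher (*ct* 1.04) and 0 lower, and of the 5 glial markers 1 was higher and 4 lower. These counts stand beside 20.9% of all genes called higher and 24.4% called lower. The part of read type, 3′ density and other cells in this difference was not tested.

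**Figure D4:**
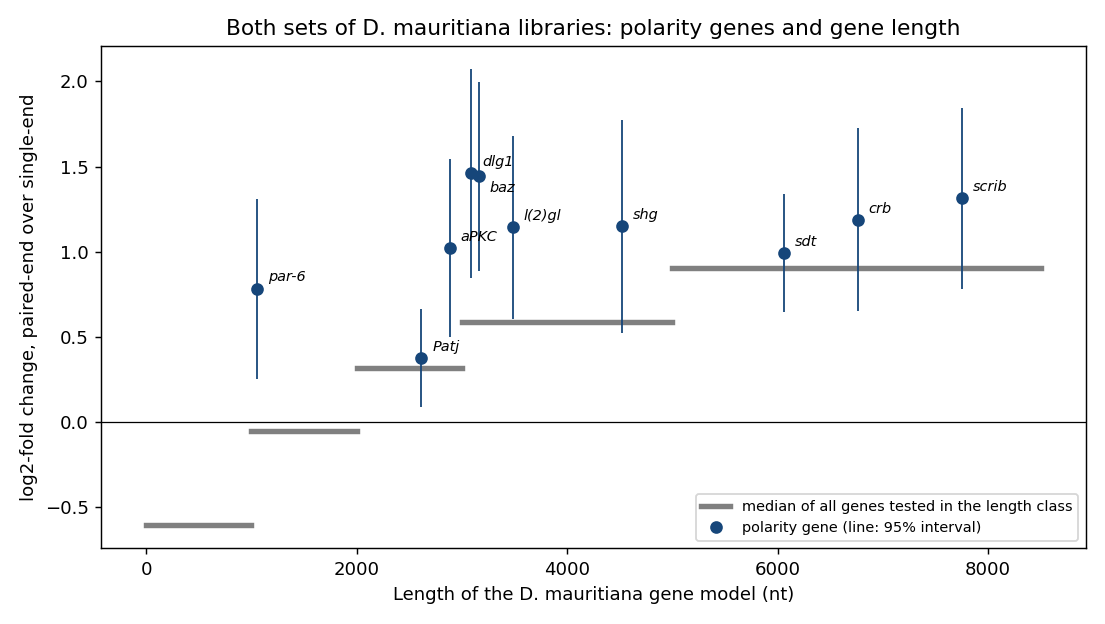
Log2-fold change of paired-end over single-end *D. mauritiana* libraries (3 each) against the length of the gene model in nucleotides. Points are the 10 polarity genes with 95% intervals, and grey bars are medians of all genes tested in 5 length classes (the last is open-ended), from -0.61 to 0.90. All 10 points lie above the bar of their class.

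The models of these genes were mostly unaltered by the reciprocal re-annotation, in which the authors carried the models found in one species over to the next, so that they cover the same sequence in each. In *D. mauritiana*, model lengths ran from 1056 nt for *par-6* to 7755 nt for *scrib*. They differed by at most 9 nt between *D. melanogaster* and *D. mauritiana* and at most 18 nt between *D. simulans* and *D. mauritiana*. On the published *D. mauritiana* genome, to which the models were aligned, *l(2)gl* lies on chromosome 2L from 2809 to 8805 in 8 exons, *shg* on 2R from 14973648 to 14979404 in 2 exons, and *scrib* on 3R from 21550516 to 21608236 in 25 exons. *sdt*, *baz*, *par-6* and *dlg1* are the 4 X-linked members, and all libraries were from females.

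The exception was *baz*, whose model lost its 3′ part. The direct re-annotation, an alternative in which each genome was annotated on its own, gave 4563 nt in *D. melanogaster* and 4569 nt in *D. mauritiana* but 3161 nt in *D. simulans*, and the reciprocal step kept 3157 nt, 69.2% of the *D. melanogaster* model, from position 1 to 3157. On the published *D. mauritiana* genome, the shortened model lies on chromosome X from 15958536 to 15963775. On the direct models, *baz* was called lower in *D. simulans*, at a log2-fold change of -0.85 (-1.06 to -0.63, adjusted p = 0.000781), with a *D. mauritiana* model 1408 nt longer than that of *D. simulans*. On models of matching length it was -0.20 and did not pass. In *D. melanogaster*, where both models were of like length in either annotation, the values were -0.14 on the direct and -0.12 on the reciprocal models.

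The part removed from *baz*, 1406 nt long, shows how reads fell along this transcript. The removed 3′ part had 1.78, 2.82 and 1.98 times the reads per kilobase of the kept 5′ part in *D. melanogaster* A, B and C. In single-end *D. mauritiana* A, B and C the same ratio was 2.61, 2.80 and 1.66, and in paired-end D, E and F it was 1.21, 1.22 and 1.31. The libraries with the steepest ratio for *baz* were those with the highest 3′ density over the 35 models, of which *baz* is 1. In counts, the kept part had 1129, 516 and 1040 reads in *D. melanogaster*, and 510, 1095 and 1526 in single-end *D. mauritiana*, against 14185 to 16796 in the paired-end *D. mauritiana* libraries.

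**Figure D5:**
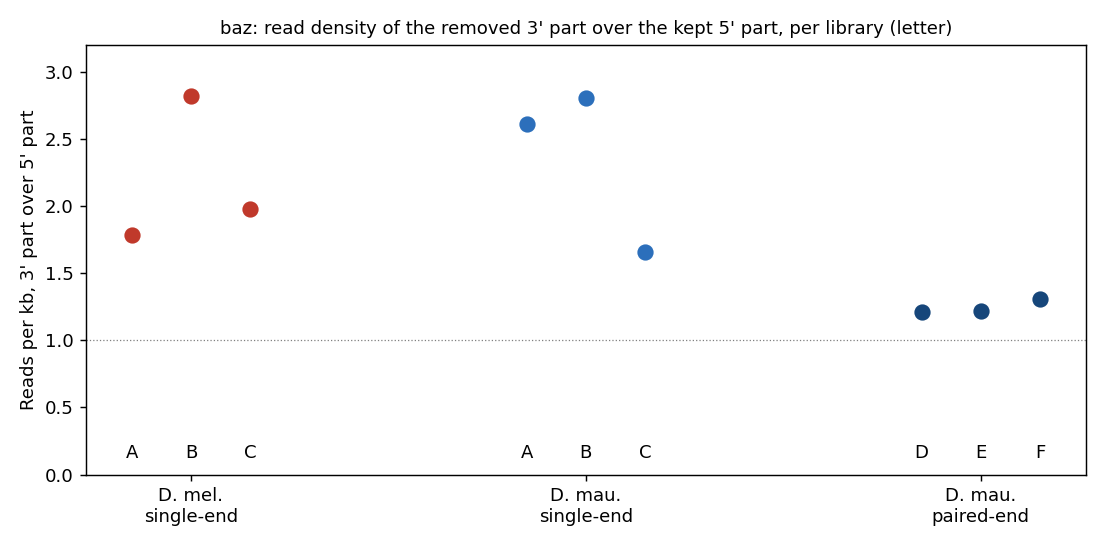
Reads per kilobase on the 3′ part of *baz* that the reciprocal re-annotation removed, over reads per kilobase on the 5′ part it kept, for 9 libraries (letters are replicates, the dotted line marks equal density, axis from 0). *D. melanogaster* B and single-end *D. mauritiana* A and B lie between 2.61 and 2.82, and the paired-end libraries between 1.21 and 1.31.

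Further genes of the pathway were taken as 4 lists of 55 genes, of which 50 were in the tables and all 50 were tested. Among partners and regulators of the polarity proteins, 0 of 16 were called in *D. melanogaster* over *D. mauritiana* and 0 of 16 in *D. simulans* over *D. mauritiana*, with median log2-fold changes of 0.02 and -0.05. These included the small GTPase gene *Cdc42*, which activates the Par complex, at -0.01 in *D. melanogaster* and -0.03 in *D. simulans*, and *par-1*, whose kinase restricts Bazooka basolaterally, at -0.01 and -0.14. Of 9 genes for endosomal sorting that limits Crumbs and other membrane proteins, 0 were called in either species, with medians of 0.17 and 0.01. Counts for these lists stand beside the 18.2% and 25.1% called over all genes.

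The junction lists held the few calls. Of 7 further adherens junction genes, 0 were called in *D. melanogaster*, and 1 was lower in *D. simulans*, *pyd*, which encodes the junctional scaffold Polychaetoid. It had 537, 609 and 557 CPM in *D. simulans* and 700, 731 and 665 CPM in *D. mauritiana*, without overlap, and a log2-fold change of -0.30 ± 0.07 (SE, adjusted p = 0.0221). It did not pass without *D. mauritiana* D (adjusted p = 0.0947) or E (0.0876) or without *D. simulans* C (0.0799). The β-catenin gene *arm*, partner of E-cadherin, did not pass, at -0.01 in *D. melanogaster* and -0.10 in *D. simulans*.

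Of 18 septate junction genes, 1 was called higher in *D. melanogaster*, and 1 was higher and 1 lower in *D. simulans*. The claudin gene *kune* had 278, 352 and 258 CPM in *D. melanogaster* and 200, 199 and 191 CPM in *D. mauritiana*, a log2-fold change of 0.59 ± 0.16 (SE, adjusted p = 0.0410), and it did not pass with any of the 6 libraries left out (adjusted p from 0.0611 to 0.127). Another claudin gene, *sinu*, had 137, 136 and 129 CPM in *D. simulans* and 110, 111 and 112 CPM in *D. mauritiana* (0.27 ± 0.05, adjusted p = 0.0117), and it did not pass without *D. mauritiana* D (adjusted p = 0.0569). *M6*, which encodes a proteolipid protein of junctions, had 102, 98.5 and 102 CPM in *D. simulans* and 120, 122 and 131 CPM in *D. mauritiana* (-0.30 ± 0.06, adjusted p = 0.0111), and it had -0.48 in *D. melanogaster*, where it did not pass (adjusted p = 0.0721). In *D. simulans*, *pyd*, *sinu* and *M6* did not overlap with *D. mauritiana*, and neither did 44.6% of all genes tested. They were named because they were called, so this adds no support. Over the 18 genes the medians were 0.08 in *D. melanogaster* and 0.03 in *D. simulans*.

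Between the paired-end and single-end *D. mauritiana* libraries, the same lists held calls in both directions, except the adherens junction genes. Higher in the paired-end libraries were 8 of 16 partners, 6 of 7 adherens junction genes, 4 of 18 septate junction genes and 2 of 9 trafficking genes. Lower were 2, 0, 2 and 2 of them. These counts stand beside 20.9% of all genes tested that were called higher and 24.4% called lower. The median log2-fold changes were 0.50, 0.91, 0.20 and -0.05 for these lists, beside 1.15 for the 10 polarity genes and -0.04 over all genes. Model length was not taken into account in these counts.

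The genes whose pattern over the 12 libraries was most like that of *crb* and *l(2)gl* were found among 7760 genes by Pearson's r of log2(CPM + 1), after the mean of the 6 libraries of each species comparison was subtracted. Nearest to *crb* were *CG2926* (r = 0.994), *bon* (0.990), which encodes a chromatin-associated cofactor, and *nonC* (0.990), which encodes a kinase of nonsense-mediated decay. Nearest to *l(2)gl* were *Dcr-2* (0.982), which encodes the Dicer enzyme that makes small interfering RNAs, *Rev1* (0.973), which encodes a translesion DNA polymerase, and *AIF* (0.972), which encodes a mitochondrial flavoprotein. *Dcr-2* had 196, 132 and 168 CPM in *D. melanogaster* and 55.7, 59.2 and 99.5 in single-end *D. mauritiana*, and 183, 198 and 200 in *D. simulans* and 147, 145 and 146 in paired-end *D. mauritiana*. Among the 45 pairs of polarity genes, r ran from 0.01 for *sdt* and *l(2)gl* to 0.97 for *crb* and *shg*, with a median of 0.73. *crb* correlated with the other 9 genes at 0.62 (*l(2)gl*) to 0.97 (*shg*), and *l(2)gl* at 0.01 (*sdt*) to 0.84 (*scrib* and *Patj*). These correlations are descriptions over 12 libraries that differ in depth and, where it was measured, in 3′ read density. The part of both in the correlations was not tested.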

How the data were processed

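Total RNA of eye-antennal discs was sequenced with the TruSeq RNA kit from 500 ng of RNA. The authors deposited counts of reads per gene, not normalised, in 6 tables (published, direct and reciprocal annotation for each of the 2 species comparisons), with the model length. They split paired-end reads into 50 bp reads, counted these separately and mapped all reads with Bowtie2 (SAMtools 0.1.19) to coding sequences of the same species. The reads of a pair are thus not independent, and strand use in counting is not given in the sources used here. Of 13331 identifiers, 13065 had a symbol in the annotation tables. The 10 genes and all lists were chosen with earlier results of these data known.

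Counts of the reciprocal tables were tested with the quasi-likelihood test of edgeR 4.0.16 (R 4.3.3), with TMM normalisation and filterByExpr with default settings, 3 libraries against 3, within 1 table. Standard errors and 95% intervals follow from its F statistic. Both *D. mauritiana* sets, and all 12 libraries, were tested after joining the tables by gene. P-values were adjusted over all genes tested (Benjamini-Hochberg), and genes with an adjusted p below 0.05 were called. CPM and RPKM used TMM-scaled library sizes. Alternatives were RLE size factors, DESeq2 1.42.0, other filters (at least 1 count, or at least 10 counts in every library), length-corrected offsets, the direct and published annotations, each library left out and the replicate letter as a block. The division by 3′ density was added after the data had been seen. Models for 3′ density had kept under 90% of their length, had lost more than 30 nt at the 3′ end and had at least 50 counts in each library. Beside the 10 genes, the text names, per list and species comparison, the called gene with the largest positive and the largest negative log2-fold change among genes averaging 100 or more counts in each table's libraries, and the 3 genes most like *crb* and *l(2)gl*. *Cdc42*, *par-1*, *arm*, *Dcr-2* and the glial markers *alrm*, *gcm*, *wrapper*, *moody* and *repo* were named as examples after their values were seen. The same holds for the neuronal markers *Snap25*, *brp*, *Syt1* and *nSyb*, the eye markers *elav*, *dac*, *sev*, *ato* and *ro*, and the antennal marker *ct*. In simulated counts with 200 genes changed 2-fold, edgeR recovered 57.0% in the comparison with *D. melanogaster* (9632 genes), 74.0% with *D. simulans* (10994 genes), 59.5% between the *D. mauritiana* sets (10338 genes) and 11.0% for the difference of differences (10970 genes). The simulated counts were drawn independently, with a spread set by the mean level alone, and only genes averaging at least 100 counts were changed. They held no shift in 3′ density shared by the genes of a library, so these shares do not give the power of the real comparisons. No replicate pair agreed within sampling noise. No sequences were used here.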

Additional observations from a re-analysis of the deposited data

How the results depend on the processing

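*l(2)gl* in *D. simulans* kept its direction and its call under every alternative run, and all 10 genes stayed higher in paired-end *D. mauritiana* under each. In *D. melanogaster*, 1 of the 10 genes was called with DESeq2, with the published annotation and with the replicate block, in place of 0, each time *l(2)gl* (adjusted p = 0.00803, 0.0495 and 0.0341). Over all genes DESeq2 called 2462 of 13331, and the published annotation gave 1808 of 8630. The replicate letters did not pair the samples (correlation of same-letter deviations -0.24, 0.20 and 0.16), and the replicate block called 1478 genes in place of 1775. It could not be fitted for *D. simulans*, whose letters are not those of paired-end *D. mauritiana*. With a library left out, calls among the 10 genes ranged from 0 to 2 in *D. melanogaster*, 1 to 2 in *D. simulans*, 0 to 10 between the *D. mauritiana* sets and 0 to 2 for the difference between both species differences, and over all genes from 849 to 1913, 1633 to 2673, 292 to 6077 and 1202 to 2110, against 1775, 2790, 4743 and 1636. In the 3 single-end libraries with the lower 3′ density, 6 of the 10 genes were called in *D. melanogaster* (5108 genes or 49.8% overall), and in the 3 with the higher density 2 were (18.2% overall). These fits have 1 library in 1 group and assume that it varies like the others, so their calls say little about the genes. The same limit holds for the difference of differences with either density, and for the paired-end libraries against single-end *D. mauritiana* C alone. Calls of those fits are therefore not given.

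Calls in the 4 lists were 1 in *D. melanogaster*, 3 in *D. simulans*, 26 between the *D. mauritiana* sets and 0 for the difference. In *D. melanogaster* they were 0 with no filter and with the replicate block, 2 with the direct and with the published annotation, and 11 and 3 in the libraries of lower and higher 3′ density, with 49.8% and 18.2% of all genes called in these fits. In *D. simulans* they were 5 with DESeq2 and with the direct annotation. For the difference they were 1 with DESeq2, beside 2220 of all 13311 genes. With a library left out they ranged from 0 to 1, 1 to 5, 1 to 38 and 0 to 3.

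Signs turned for genes near 0. In *D. melanogaster*, *par-6* was 0.008 with the published annotation, *aPKC* -0.018 with no filter and -0.01 with the direct annotation. With the lower 3′ density *crb* was -0.14, *aPKC* -0.32, *dlg1* -0.21, *shg* -0.12 and *sinu* -0.10, and with the higher density *crb* was -0.026 and *shg* -0.20. For the difference, *crb* was -0.093, *baz* -0.34, *aPKC* -0.18 and *dlg1* -0.15 with the lower density, and *crb* -0.016 and *shg* -0.036 with the higher. With a library left out, values in *D. melanogaster* ran from -0.085 to 0.41 for *crb*, -0.29 to 0.22 for *baz*, -0.26 to 0.22 for *par-6*, -0.19 to 0.30 for *aPKC*, -0.066 to 0.51 for *dlg1*, -0.13 to 0.44 for *shg* and -0.049 to 0.50 for *sinu*. In *D. simulans* they ran from -0.041 to 0.011 for *Patj*, -0.20 to 0.012 for *dlg1* and -0.16 to 0.065 for *scrib*. For the difference they ran from -0.023 to 0.47 for *crb*, -0.21 to 0.057 for *sdt*, -0.10 to 0.42 for *baz*, -0.30 to 0.18 for *par-6* and -0.028 to 0.47 for *aPKC*. The cause was not tested, except that fewer libraries were used where some were left out.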
